A study of Homo sapiens with 4 samples.

Results

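The AP-1, EGR1 and MYC transcription factors were described here through 9 genes, FOS, FOSB, FOSL1, FOSL2, JUN, JUNB, JUND, EGR1 and MYC, chosen by name. All transcripts of these genes in the raw count table were taken, 46 of the 227368 transcripts listed. RNA-seq was done on H1299, a human line of non-small-cell lung carcinoma origin, and compared cells exposed to 5 μM HgCl2 for 48 h with control cells given the solvent, 0.6% EtOH. Both groups are the same line with no other agent or allele named, and each has 2 columns of counts labelled replicates 1 and 2. The treatment text of the labels gives HgCl2 for all 4 samples, whereas the titles and the study's methods give the solvent alone to the EtOH samples, and the latter is followed here.

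AP-1 is a dimer of leucine zipper proteins. A JUN family protein (JUN, JUNB, JUND) pairs with another JUN protein or with a FOS family protein (FOS, FOSB, FOSL1, FOSL2), and the dimer binds the sequences known as TRE and CRE in the control regions of genes. FOS, JUN, JUNB, FOSB, EGR1 and MYC are textbook immediate-early genes, whose transcription starts within minutes of a growth factor or stress signal through MAP kinases without new protein being made, and whose transcripts are usually short-lived. EGR1 is a zinc finger factor that binds GC-rich sites, and MYC pairs with MAX to bind E-boxes in genes of growth and ribosome production. Cells sampled at 48 h are far past the first burst of such a response, so the values are levels under continued exposure.

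The starts of 4 of the genes are shown first, since the counts of these genes differed in direction between the groups. JUN and EGR1 had more counts in HgCl2, while JUNB and JUND had fewer. Each sequence is the 250 bases upstream of the RefSeq transcription start, read along the gene's strand, from GRCh38.p14. JUN lies at chr1:58784048-58784297 on the minus strand, EGR1 at chr5:138465229-138465478 on the plus strand, JUNB at chr19:12791236-12791485 on the plus strand and JUND at chr19:18281623-18281872 on the minus strand. Capitals mark CArG boxes, which serum response factor binds, and matches on either strand to TGACGTCA (CRE), TGACNTCA, TGACTCA (TRE) and TGACGT, which overlap one another where they share letters.
JUN: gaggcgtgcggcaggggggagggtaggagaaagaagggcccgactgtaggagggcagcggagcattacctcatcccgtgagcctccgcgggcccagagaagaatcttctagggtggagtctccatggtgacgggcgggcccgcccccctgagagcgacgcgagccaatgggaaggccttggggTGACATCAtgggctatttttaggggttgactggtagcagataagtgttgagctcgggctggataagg
EGR1: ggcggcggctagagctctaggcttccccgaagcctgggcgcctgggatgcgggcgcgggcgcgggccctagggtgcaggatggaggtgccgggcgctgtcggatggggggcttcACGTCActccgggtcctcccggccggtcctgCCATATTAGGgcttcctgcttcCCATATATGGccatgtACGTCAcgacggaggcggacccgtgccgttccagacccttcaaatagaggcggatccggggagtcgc
JUNB: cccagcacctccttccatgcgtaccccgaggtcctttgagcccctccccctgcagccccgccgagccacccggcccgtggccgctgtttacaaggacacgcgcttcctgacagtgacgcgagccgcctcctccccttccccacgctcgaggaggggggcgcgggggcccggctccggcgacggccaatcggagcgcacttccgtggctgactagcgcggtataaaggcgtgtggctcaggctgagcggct
JUND: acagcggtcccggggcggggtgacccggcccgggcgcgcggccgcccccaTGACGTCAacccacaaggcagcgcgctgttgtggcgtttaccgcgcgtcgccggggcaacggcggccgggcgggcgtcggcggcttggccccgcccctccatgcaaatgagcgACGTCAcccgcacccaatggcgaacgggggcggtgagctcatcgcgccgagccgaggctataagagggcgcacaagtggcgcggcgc

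In these windows JUN had 1 match to TGACNTCA, from 67 to 60 bases upstream of its start. EGR1 had 2 CArG boxes, beginning 105 and 83 bases upstream, and 2 matches to TGACGT, beginning 136 and 67 bases upstream. JUND had a full CRE beginning 200 bases upstream and another TGACGT match beginning 87 bases upstream, and JUNB had none of the marked motifs. The windows of FOS, FOSB and FOSL2 each had 1 match to TGACGT, beginning 64, 60 and 66 bases upstream, and TGACTCA was found in none of the 7 windows searched. Of 35116 promoters of the same length, 1.16% held a CArG box, 1.65% held TGACGTCA, 6.87% held TGACNTCA, 7.1% held TGACGT and 4.2% held TGACTCA. The matches are a description of the letters and say nothing of binding in these cells. Bases beyond 250 upstream were not searched, so a gene without a motif in its window can hold it elsewhere. FOSL1 and MYC are not shown.

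The total counts per column lay between 4720978 and 5053120. The columns of a group were compared first. Over 12382 transcripts whose EtOH columns together held 20 counts or more, the squared difference of the columns was 0.505 times what counting noise gives between independent samples, and for the HgCl2 columns it was 0.516 times, while an EtOH against an HgCl2 column gave 31.8. Within each group the columns therefore differed by less than sampling noise, and each group was counted as 1 sample. The same held for each member with many counts: the JUN columns differed by 8 counts in EtOH and by 31 in HgCl2, against sampling SDs of 31.3 and 44.6. Every difference given is thus of single samples, has no replicate check and carries no p-value. Intervals are exact 95% intervals from the mean counts (Clopper-Pearson) and cover counting error only. Of the markers of the line, VIM had 624 and 506 mean counts over its transcripts in EtOH and HgCl2, KRT8 had 55.5 and 4, and KRT18 had 23.5 and 24.5. Of 8 markers of other cell types, PTPRC, CD3E, VWF, ALB and GFAP had 0 counts in every column, PECAM1 had 4.5 and 1.5, COL1A1 had 15.5 and 3.5 and COL3A1 had 2 and 0. The part of these in the results was not tested.

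The counts were set beside the bases that each transcript shares with no other. A base is called a transcript's own when no other listed transcript covers it. Of the 46 transcripts, 26 had no own base, and none of these had a count. Of the 20 with an own base, 10 had a count, and the number of own bases did not order the counts: FOSL2 ENST00000264716 had 970 and a mean of 1.5 counts in EtOH, and FOS ENST00000555242 had 115 and a mean of 7. Over the whole table, 1.71% of the 80430 transcripts with no own base had a count. EGR1 and JUN each have 1 listed transcript, all of whose 3137 and 3257 bases are its own. JUNB also has 1, with 1571 of 1830 bases its own, or all of them where the antisense HOOK2 is set aside. FOSB has 12 transcripts with 24 own bases in all and 0 counts in every column. FOSL1, the member best known from invasive carcinoma cells, has 5 transcripts with 154 own bases in all and likewise 0 counts. A count of 0 in these genes allows a share of up to 0.594 CPM (counts scaled to the total of the column) in EtOH and 0.635 in HgCl2, but only of reads that were assigned to a transcript, and how reads on shared bases were treated is not given in the sources used here.

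**Figure D1:**
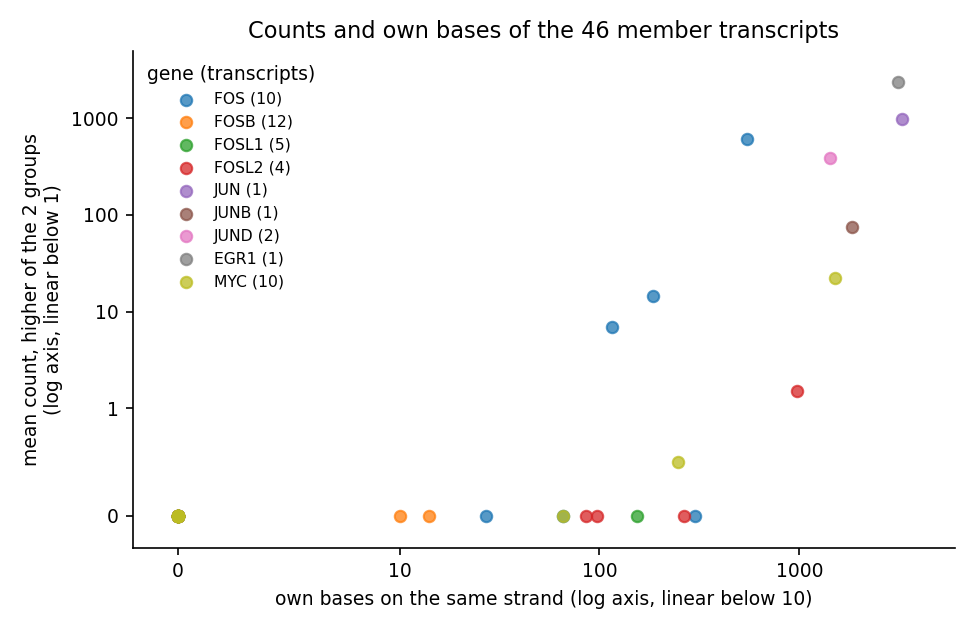
Each point is 1 of the 46 transcripts of the 9 genes, with its own bases (covered by no other listed transcript of the same strand) on the x axis and the higher of its mean counts in the EtOH and HgCl2 groups on the y axis, both log axes with a linear part near 0. The 26 transcripts with no own base lie together at 0 counts, and the points with the most counts are EGR1, JUN, FOS, JUND and JUNB.

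Where the own bases lie also differs. Those of the main FOS transcript (ENST00000303562) are 546 bases, all in the 3′ UTR, and those of JUND (ENST00000252818) are 1429 bases, 567 of them coding. The MYC transcript ENST00000621592 has 1517 own bases, all of them in its 3′ UTR, and 8 of the other 9 MYC transcripts had 0 counts. Of the 4 FOSL2 transcripts only ENST00000264716 had counts, 1 and 2 in the EtOH columns and 0 in both HgCl2 columns, on 970 own bases. Where on the transcripts the counted reads lay is not given by the table. Transcripts with no own base can hold many counts, such as that of C2CD5 with 1272 and 2020 mean counts in EtOH and HgCl2.

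Of the 46 transcripts, 8 passed the filter on low values, a group mean over 1 FPKM (fragments scaled for transcript length and library depth) in either group, and are called tested. They belong to 6 of the 9 genes. JUN was the only one at least 2-fold higher in HgCl2, where 19.4% of all 17547 tested transcripts were, and 3 were at least 2-fold lower, where 34.3% of all were. The 3 lower ones, 2 of FOS and 1 of MYC, rest on few counts. They passed the filter through EtOH alone, at 2.06, 2.03 and 1.08 FPKM there against 0, 0 and 0.122 in HgCl2. The filter thus favoured a lower call for them, and no conclusion is drawn from their direction. The 5 that averaged 30 counts or more over both groups, 1 each of EGR1, JUN, FOS, JUND and JUNB, include the JUN transcript as the only one past 2-fold. Among all 7107 tested transcripts of that depth 15.6% were at least 2-fold higher and 9.55% at least 2-fold lower, 25.1% in all.

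JUN, the central AP-1 subunit and the main substrate of the JNK kinases, was counted 486 and 494 times in the EtOH columns, against 979 and 1010 in HgCl2 (ENST00000371222, chromosome 1 from 58780791 to 58784047 of GRCh38). Both HgCl2 columns lay above both EtOH columns, at 210.6 against 97.0 CPM on average. Since each group was counted as 1 sample, this separation is no replicate check. On the TMM scale, the log2 fold change was 1.16 (95% interval 1.01 to 1.32), a 2.24-fold higher level. With TMM taken only over transcripts that reached 10 counts in all 4 columns it was 0.99, just under 2-fold. Of the 2712 well-counted transcripts, which averaged 200 counts or more, 2.25% had a higher fold change than JUN, while 4.65% were at least 2-fold higher, 2.03% at least 2-fold lower and 6.67% either. The median of these transcripts was 0.21, and relative to it JUN was 0.96 higher on the log2 scale, a 1.94-fold difference that is the same under every scaling that multiplies a whole column.

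EGR1 had 1487 and 1466 counts in EtOH and 2393 and 2367 in HgCl2 (ENST00000239938, chromosome 5 from 138465479 to 138469303), the most of the 9 genes. The columns of the groups again did not overlap, which is likewise no replicate check. Its log2 fold change was 0.83 (0.74 to 0.93), a 1.78-fold higher level, which stayed under the 2-fold limit on the TMM scale. On the deposited FPKM scale, as log2(FPKM + 1), it was 1.002, at the limit. Relative to the median of the 2712 well-counted transcripts it was 0.62 higher, and 8.59% of those transcripts had a higher fold change. The difference between the log2 fold changes of EGR1 and JUN was -0.33, with a counting interval of -0.51 to -0.15.

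FOS, the partner that gives AP-1 its strongest dimer with JUN, did not share this difference. Its main transcript had 614 and 605 counts in EtOH and 536 and 533 in HgCl2 (chromosome 14 from 75278828 to 75282230). The log2 fold change was -0.05 (-0.22 to 0.12). Its sign depended on the scale: it was 0.13 on log2(FPKM + 1), 0.09 when TMM used all transcripts with a count, and -0.22 with TMM over those that reached 10 counts in all 4 columns. Relative to the median of the 2712 well-counted transcripts it was -0.25. JUN exceeded FOS by 1.21 in log2 fold change (interval of FOS minus JUN -1.44 to -0.98), a difference that no column scaling alters.

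The FOS transcripts ENST00000555347 and ENST00000555242 have 185 and 115 own bases, all of which lie in introns of the main transcript. The first had 19 and 10 counts in EtOH and 0 in both HgCl2 columns, and the second had 6 and 8 counts in EtOH and 0 in HgCl2. Against a floor of 3 counts in HgCl2 and with the EtOH means taken as exact, they were at least 4.38-fold and at least 2.11-fold lower. With the counting error of both groups, the intervals of the log2 fold change ended at -1.64 and -0.38, so the second can lie under 2-fold. Among all tested transcripts with 10 to under 20 mean counts in EtOH, 3.51% had 0 counts in HgCl2, and with 5 to under 10 counts 14.4% had. At these depths 28.0% and 58.3% had at most 3 counts in HgCl2, and 48.6% and 57.4% were at least 2-fold lower. Both FOS transcripts thus had counts in EtOH alone, at depths where a lower call was common. Another FOS transcript with 300 own bases in these introns, ENST00000556324, had 0 counts in every column.

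JUND and JUNB, the JUN family members that activate transcription less strongly than JUN and often oppose it, both had fewer counts in HgCl2. JUND had 384 and 391 counts in EtOH and 279 and 269 in HgCl2 (ENST00000252818, chromosome 19 from 18279694 to 18281622). The log2 fold change was -0.36 (-0.59 to -0.13). JUNB had 71 and 80 counts in EtOH and 45 and 53 in HgCl2 (ENST00000302754, chromosome 19 from 12791486 to 12793315). Its log2 fold change was -0.48, and the counting interval of -1.03 to 0.06 includes no difference. Neither passed 2-fold. On the log2(FPKM + 1) scale the values were smaller, -0.17 for JUND and -0.26 for JUNB, with the same sign. Relative to the median of the 2712 well-counted transcripts, JUND was at -0.57 and JUNB at -0.69. JUNB, with fewer counts, is not among these. Of the 899 tested transcripts with 60 to under 90 mean counts in EtOH, as JUNB had, the median was -0.16 and 22.6% were at least 2-fold lower. Of the 616 with 300 to under 500, as JUND had, the median was 0.10 and 4.71% were at least 2-fold lower.

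**Figure D2:**
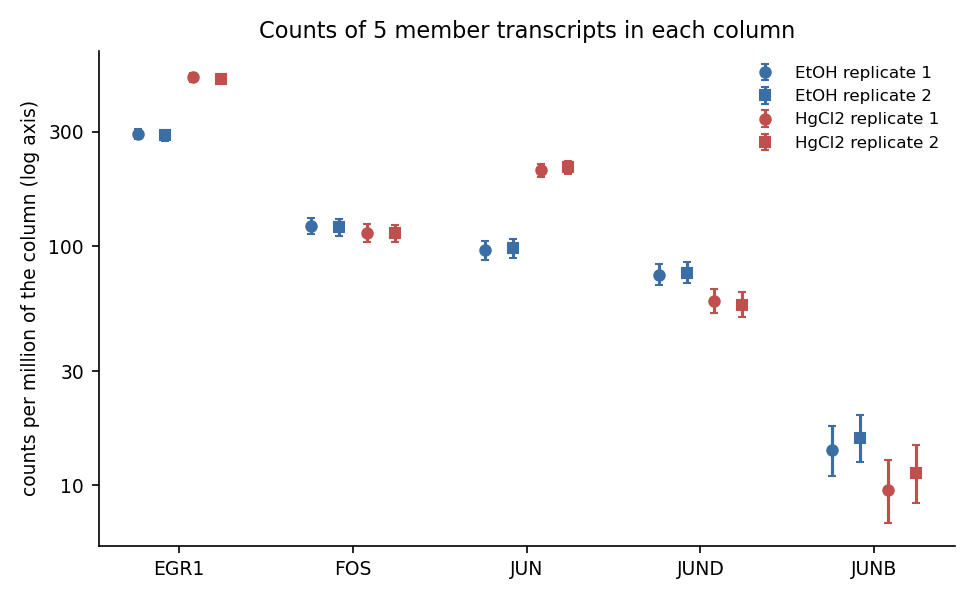
Points give the CPM of each of the 4 columns (log axis) for EGR1, FOS, JUN, JUND and JUNB, blue for EtOH and red for HgCl2, with exact 95% counting intervals. The HgCl2 points of EGR1 and JUN lie above their EtOH points, and those of JUND and JUNB below. The intervals of the groups overlap for FOS and for JUNB.

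The JUN family thus diverged between its members. The log2 fold change of JUN exceeded that of JUND by 1.52 (interval 1.249 to 1.794) and that of JUNB by 1.64 (1.10 to 2.19), so the ratio of JUN to JUND counts was 2.87 times higher in HgCl2 and that of JUN to JUNB 3.13 times. JUNB and JUND did not differ from each other within counting error (-0.12, -0.69 to 0.44). In all, 10 pairs among the 5 transcripts were compared, and in 8 of them the interval of the difference, from the normal approximation on log counts with no adjustment for the number of pairs, lay apart from 0. The exceptions were JUNB with JUND and FOS with JUNB (0.43, -0.11 to 0.98). FOS and JUND differed by 0.31 (0.03 to 0.59).

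**Figure D3:**
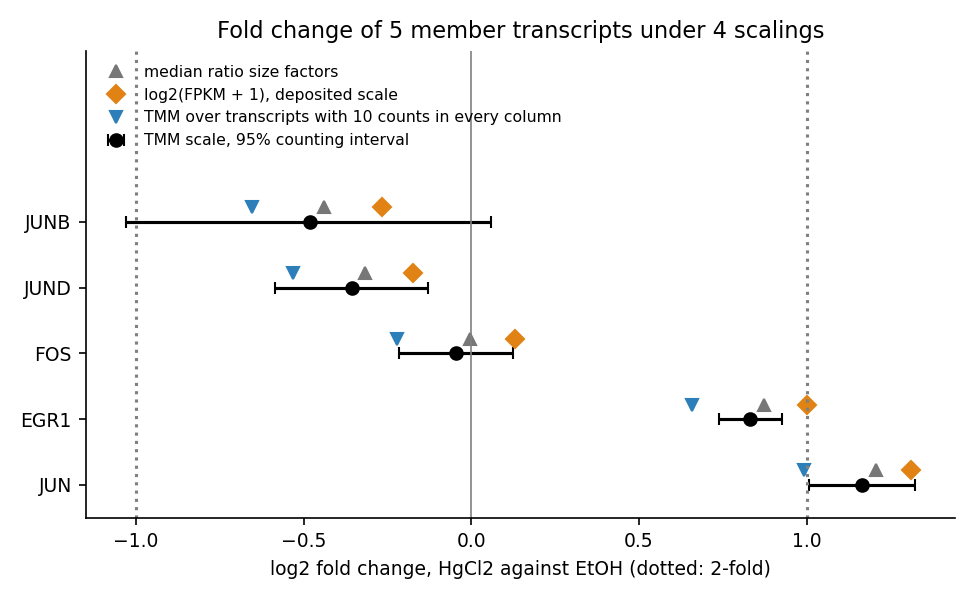
The log2 fold change of HgCl2 against EtOH on the x axis for the 5 transcripts, with black points for the TMM scale and bars for its 95% counting interval; other symbols give 3 other scalings, and dotted lines mark 2-fold. JUN lies on the right under every scaling, at 0.99 in the lowest, JUND and JUNB lie left of 0, and FOS changes sign between scalings.

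Levels can be set against each other only per length. In counts per kilobase of own bases, the order in EtOH was FOS at 1116, EGR1 at 471, JUND at 271, JUN at 150 and JUNB at 48.1, and the counting intervals of no neighbours in this order overlapped. In HgCl2 the order was FOS at 979, EGR1 at 759, JUN at 305, JUND at 192 and JUNB at 31.2, again with no overlap between neighbours. JUN and JUND exchanged places, also by FPKM. The place of FOS depended on the length used. By the deposited FPKM, which divides by the whole transcript, EGR1 was first in EtOH at 85.7, before FOS at 52.7, JUND at 36.6, JUN at 27.4 and JUNB at 7.51. In HgCl2 the FPKM order was EGR1 at 172.6, JUN at 69.5, FOS at 57.8, JUND at 32.3 and JUNB at 6.09. On all 1830 bases, JUNB had 41.3 and 26.8 counts per kilobase.

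Of the MYC transcripts only ENST00000621592 was tested, with 22 counts in each EtOH column and 2 in each HgCl2 column. Its log2 fold change was -3.32 (-6.45 to -1.29), on 2 counts in HgCl2. It ends at 127742951 on chromosome 8, whereas the other listed MYC transcripts end at or before 127741434. All of its 1517 own bases lie in the 3′ UTR. Whether its counts stand for that 3′ end or for MYC transcripts as a whole was not tested. Of the 1439 tested transcripts with 20 to under 30 mean counts in EtOH, 40.9% were at least 2-fold lower, with a median of -0.59, and 7.51% had at most 3 counts in HgCl2, as MYC did. On the log2(FPKM + 1) scale the value was -0.89, under 2-fold. Another MYC transcript, ENST00000259523, had 1 count in EtOH replicate 1 and 0 in the other columns. The other 8 of the 10 listed MYC transcripts had no count.

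**Figure D4:**
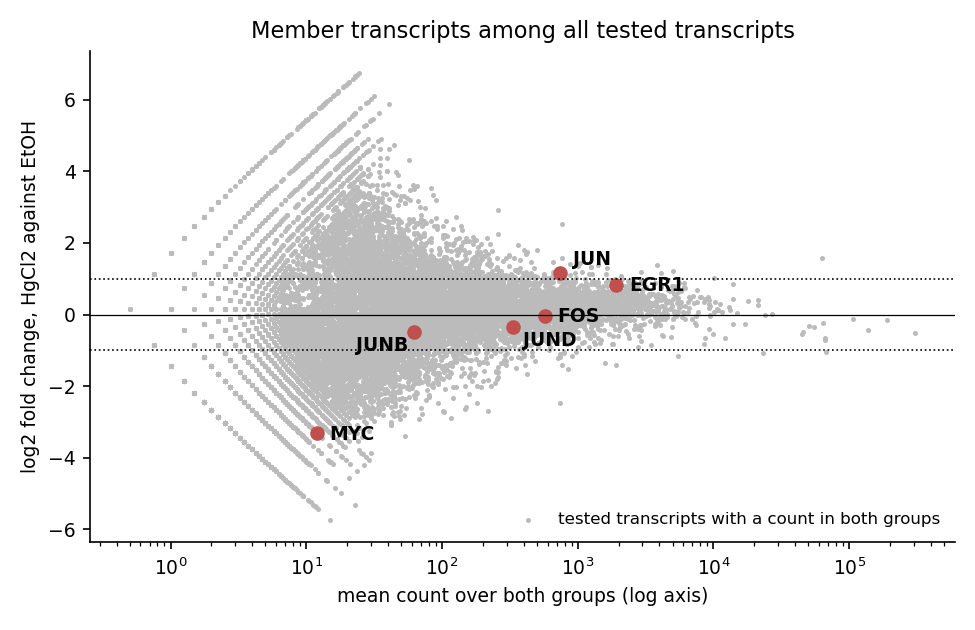
Grey points are the tested transcripts with a count in both groups, by mean count over both groups (log axis) and log2 fold change on the TMM scale. Red points give, for 6 of the genes, the tested transcript with the most counts. The spread widens towards low counts, where MYC lies, while JUN lies at the upper edge of transcripts of its depth.

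GC content was compared, since the fold change moved with it across transcripts. JUN and EGR1 have 56.1% and 55.3% GC, FOS has 52.8%, JUNB has 64.9% and JUND 69.9%. Across the 2180 coding ones among the well-counted transcripts, the rank correlation of GC content with the log2 fold change was -0.26, a description over transcripts that share both libraries. The fold change did not fall steadily with GC content: the median was 0.30 up to 40% GC and -0.05 from 50 to 55%. The 65 of the 2180 with 55 to 60% GC had a median of 0.02 and a 90th percentile of 0.79, below the values of both EGR1 and JUN. From 60 to 65%, where JUNB lies, there were 12, with a median of 0.17. Only 4 had over 65%, with a median of 0.49, so that JUND has few transcripts to be set against. The 3′ UTR pentamer ATTTA, a mark of short-lived transcripts, was found 5 times in FOS, 3 times in JUN, 2 times in JUNB and once in EGR1 and JUND, against a median of 4 over 5706 tested coding transcripts, whose 3′ UTRs are longer, with a median of 1643 bases against 806 in FOS and 1284 in JUN. The part of these features in the differences was not tested.

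Of 58 other tested transcripts with scaled counts near those of EGR1 in both groups, the nearest in log2 fold change were FOXN2 (0.82), LRRC40 (0.82) and C2CD5 (0.81). With 1 sample per group, this likeness is of a single ratio.

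The genes around these factors were examined by 10 lists, with 129 tested transcripts, of which 32 were at least 2-fold higher and 28 at least 2-fold lower, beside the 19.4% and 34.3% of all tested transcripts. Those shares are also the background for the counts of each list below. Values in brackets are mean counts in EtOH and HgCl2 and the log2 fold change. Upstream, of the 10 tested transcripts of MAP kinases and their kinases, 5 were at least 2-fold higher and 1 lower, among them the coding transcript of the MAP kinase kinase gene MAP2K1, with 59.5 and 137.5 (1.35), and retained introns of the JNK genes MAPK8 (34 and 75, 1.28) and MAPK9 (54 and 13, -1.91). A retained intron of MAPK10 had 0 counts in EtOH and 58 in HgCl2. It passed the filter through HgCl2 alone, at 4.46 FPKM there. For a transcript that passed through 1 group alone, here and in the lists below, the filter favoured a call towards that group. Of SRF, the ternary complex factors and CREB1, 8 transcripts were tested, 1 higher and 2 lower. SRF itself, which binds the CArG boxes shown for EGR1, was lower, with 128 and 43.5 mean counts (-1.41, -1.94 to -0.91), while its partner ELK3 had 3205 and 4977 (0.78) and ELK4 had 1528 and 1713 (0.31).

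Among AP-1 partners of the ATF, BATF and MAF families, 2 of 8 tested transcripts were at least 2-fold higher and 1 lower. The higher ones were both of ATF3, a stress-induced factor that pairs with JUN. They were ENST00000465155, a retained intron with 14.5 and 45.5 mean counts (1.79), and ENST00000492118, with no coding sequence and 7.5 and 40 (2.56). The latter passed the filter through HgCl2 alone, at 4.33 FPKM against 0.649 in EtOH. MAFK had 41 and 14 (-1.41), and ATF1 had 680.5 and 965 (0.65). MAFK passed the filter through EtOH alone, at 2.21 FPKM against 0.942 in HgCl2. In the EGR family, EGR3 had 40.5 and 82 (1.16, 0.60 to 1.74), and NAB1, a corepressor of EGR1, had 1094 and 1192 (0.27).

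Of 16 tested transcripts of other immediate-early genes, 5 were at least 2-fold higher and 5 lower, with a median of -0.004 against -0.21 over all tested transcripts. Of the 12 that averaged 30 counts or more, 4 were higher and 3 lower, with a median of 0.58. Among all 7107 tested transcripts of that depth 15.6% were higher and 9.55% lower, with a median of 0.21. The 4 higher ones were those of CCN2 (7077 and 13095, 1.03), KLF2 (116 and 237.5, 1.18), KLF6 (97 and 212.5, 1.27) and a retained intron of SGK1 (92.5 and 197.5, 1.24). The 3 lower ones were those of NR4A2 (82 and 30.5, -1.28), PPP1R15A (-1.28) and IER2 (-1.64). Of those under 2-fold with at least 200 counts, CCN1 had 4181 and 6975 (0.88), TRIB1 had 238 and 335 (0.64), DUSP1, a phosphatase that ends MAP kinase signals, had 353.5 and 460 (0.52) and IER5 had 329 and 206 (-0.53). With the median of the well-counted transcripts subtracted, CCN2 and KLF2 fell under 2-fold, as JUN did, while KLF6 and SGK1 stayed past it. The immediate-early genes of this list thus lay on both sides of 0.

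**Figure D5:**
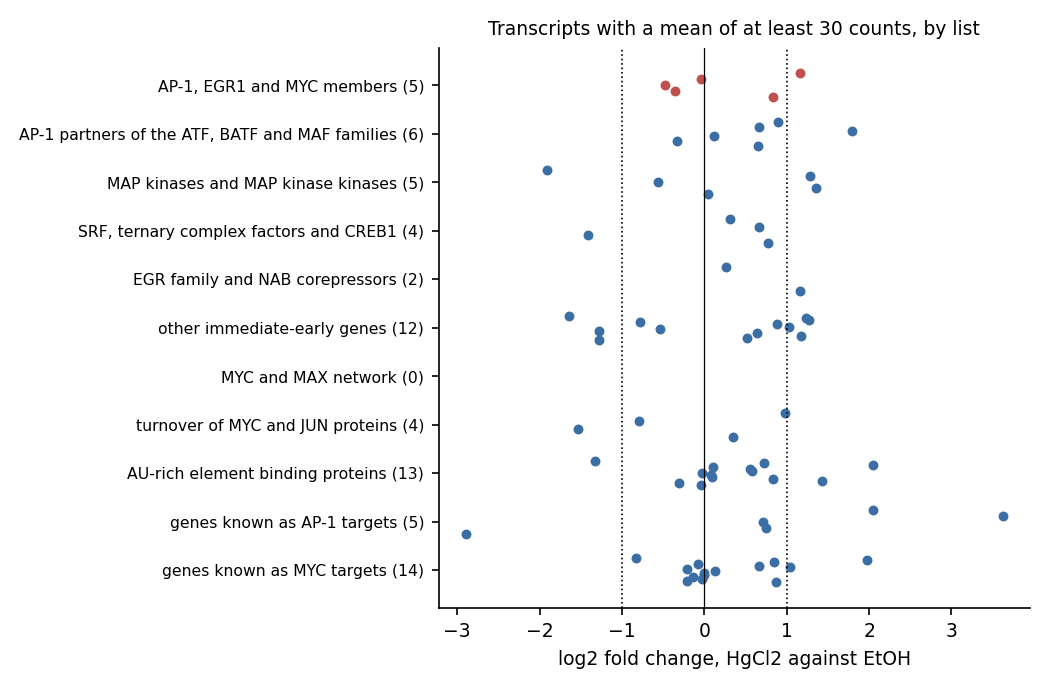
Log2 fold changes on the TMM scale of the tested transcripts averaging 30 counts or more over both groups, red for the 9 genes and blue for the 10 lists, with the number of transcripts in brackets and dotted lines at 2-fold. The 9 genes are shown by their 5 transcripts of this depth, with JUN past the upper dotted line.

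Of the genes known as AP-1 targets, 15 transcripts were tested, 3 higher and 6 lower, with a median of -0.21. These values lie near those of all tested transcripts, of which 19.4% were higher and 34.3% lower, with a median of -0.21. CCND1, which encodes cyclin D1 and was the one with the most counts, had 4885 and 7436 (0.75, 0.70 to 0.80). MMP1, an interstitial collagenase whose promoter holds a classic TRE, had 6 and 67 (3.62, 2.43 to 5.12), and a coding transcript of CD44 had 13 and 48.5 (2.04). MMP1 passed the filter through HgCl2 alone, at 7.73 FPKM against 0.554 in EtOH, so the filter favoured a higher call for it. HMOX1, which encodes haem oxygenase and is induced by oxidants through NRF2 as well, had 53.5 and 6.5 (-2.90). It passed the filter through EtOH alone, at 6.27 FPKM against 0.951 in HgCl2. The HMOX1 transcript has no own base, and of such transcripts 1.71% had a count over the whole table. Of the genes known as MYC targets, 37 transcripts were tested, 10 higher and 6 lower. Those with the most counts were near 0: NPM1 had 1793 and 1623 (0.00), NOP58 had 1198 and 1065 (-0.03), PA2G4 had 1456 and 1202 (-0.13) and NCL had 444 and 400.5 (-0.01), while ODC1, whose enzyme makes polyamines, had 155.5 and 256.5 (0.87). The higher ones of at least 30 counts in a group included retained introns of HSPD1 (1.03), NPM1 (1.97) and GNL3 (1.49) and a transcript of FBL without coding sequence (3.39).

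In the MYC and MAX network 5 transcripts were tested, 1 higher and 1 lower, and the one with at least 30 mean counts in a group, MNT, had 33 and 26.5 (-0.17). Of proteins that turn over MYC and JUN, 7 transcripts were tested, 2 higher and 1 lower. ITCH, an E3 ligase for JUN proteins, had 78 and 24.5 (-1.53), and GSK3B, a kinase that marks both for degradation, had 1611 and 1854 (0.35). The ITCH transcript passed the filter through EtOH alone, at 2.23 FPKM against 0.873 in HgCl2. Of the proteins that bind AU-rich elements, 21 transcripts were tested, 2 higher and 5 lower. Both higher ones were of TIAL1, a coding transcript (80 and 194.5, 1.43) and one annotated as subject to nonsense-mediated decay (24 and 89.5, 2.04), whereas the TIAL1 transcript with the most counts, ENST00000369093, had 709 and 685 (0.09). A transcript of ZFP36L1 was lower (90 and 32.5, -1.33), and ZFP36L2 had 1254 and 1100 (-0.05). ZFP36 itself had no tested transcript.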

How the data were processed

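The authors trimmed reads, mapped them to GRCh38 and an Ensembl annotation by STAR 2.5.4b and counted them per transcript with Rsubread, whose options are not given in the sources used here. They deposited raw counts and FPKM values, the latter made with DESeq2 1.26.0. Of transcripts whose only own bases (150 or more) lie opposite an antisense transcript, 23.5% had a count, against 1.10% of those with no own base either way; whether strand was used in counting is not given in the sources used here. From the deposited counts, log2 fold changes were computed with TMM factors (edgeR 4.0.16, R 4.3.3) over 17547 transcripts whose FPKM averaged over 1 in either group. Since each group was 1 sample, no test was run, and a 2-fold difference was called. Calculations used Python 3.11.15, numpy, pandas, scipy and matplotlib, and were tested on simulated data. Gene names and own bases come from GENCODE 44 (223558 of 227368 identifiers found) and promoters from RefSeq. The members and lists were chosen with earlier results of these data known, from textbook roles. Member transcripts with at least 30 mean counts in a group are given in full. From each list, up to 5 transcripts of such counts past 2-fold are named, and others, most with many counts, were added after their values were seen. Some genes of the marker and gene lists are not reported here. Alternatives changed scaling, filter, pseudocount, columns used, the replicate block, the floor of 3 counts and the summing per gene.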

Additional observations from a re-analysis of the deposited data

How the results depend on the processing

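With 1 sample per group, no alternative tests the conditions. Of the tested transcripts of the 9 genes, 1 was at least 2-fold higher and 3 lower in HgCl2. The numbers were 2 higher on log2(FPKM + 1) and on log2(FPKM + 0.1), where EGR1 joined JUN at 1.002 and 1.01. Under a filter of at least 10 counts per column they were 0 higher and 0 lower, and the 2 smaller FOS transcripts and MYC were then not tested. With no filter 5 of 10 were lower and with filterByExpr 1 of 6. With counts summed per gene 1 of 6 was lower, MYC, where 28.8% of all 11415 genes were. Leaving out either column of a group kept 1 higher and 3 lower, and with the replicate block the numbers were also 1 and 3; the columns share only a number. Over the 10 lists together, 32 transcripts were higher and 28 lower. The lower ones numbered 12 on log2(FPKM + 1), 14 with filterByExpr and 16 where a floor of 3 counts was put under each group. Over all tested transcripts the lower ones numbered 6022 of 17547 on the main scale. In the same order of settings they numbered 3357 of 17547, 3271 of 13069 and 3871 of 17547. Under the filter of 10 counts per column 11 list transcripts were higher and 8 lower, and with no filter 65 and 95. Over all transcripts tested under that filter, 968 of 8720 were higher and 1107 lower. With no filter, 8321 of 39729 were higher and 19178 lower, so the numbers of all transcripts moved as well. The cause of these changes, beyond the number of transcripts tested (78 and 256 in place of 129 in the last 2 settings), was not tested. The log2 fold change ranged over 13 alternatives from 0.99 to 1.34 for JUN, 0.66 to 1.01 for EGR1, -0.22 to 0.13 for FOS, -0.53 to -0.17 for JUND and -0.65 to -0.26 for JUNB. The median of all tested transcripts moved by 0.19 on log2(FPKM + 1), and among transcripts past 2-fold 36.1% were higher on the main scale and 46.7% on that one. The 2 smaller FOS transcripts have no fold change on scales without a pseudocount, since HgCl2 was at 0.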
